A study of Mus musculus with 2 samples.

Results

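The secreted WNT antagonists of the SFRP and DKK families were examined in ureters in which WNT secretion had been blocked with IWP-2. The genes were *Sfrp1*, *Sfrp2*, *Frzb*, *Sfrp4* and *Sfrp5* of the SFRP family and *Dkk1*, *Dkk2* and *Dkk3* of the DKK family. They were taken by name, as every probe whose gene name in the array files is one of these 8, and make up 8 of the 29924 gene names on the array. All 8 were among the 20119 genes tested.

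The ureters came from wildtype NMRI mouse embryos at E11.5, and the sex of the embryos was not determined. They were kept for 18 h as explants on a membrane, either with 10 µM IWP-2 or with the solvent DMSO (2‰) as control. Ureters were pooled before RNA was extracted, so that a value is that of many ureters with epithelium and mesenchyme together. RNA of 1 treated pool and 1 control pool competed on a two-colour array, and a second array with pools of its own was run with the dyes exchanged (n = 2 arrays in all). The treated pool carried AlexaFluor647 on replicate 1 and AlexaFluor555 on replicate 2.

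WNT proteins are lipid-modified by the acyltransferase PORCN before they leave the cell, and IWP-2 inhibits this enzyme. Outside the cell, WNTs bind Frizzled (FZD) receptors and the co-receptors LRP5 and LRP6, which stabilizes CTNNB1 and activates target genes through TCF/LEF factors. SFRP proteins carry a cysteine-rich domain that resembles the WNT-binding domain of Frizzled receptors, and they bind WNTs in the extracellular space. DKK1 and DKK2 bind LRP5 and LRP6 instead and can cooperate with Kremen receptors, while DKK3 is the divergent member of its family. In the ureter, WNTs from the epithelium signal to the surrounding mesenchyme, which later forms the smooth muscle coat. Genes for several extracellular antagonists, *Dkk1* among them, are known targets of canonical WNT signaling in other tissues.

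Each of the 8 genes was measured by 1 probe of 60 bases that was printed in 4 spots. For the 4 genes with the largest mean changes, the first 30 bases of the probe are given to show which transcript was read, in lower case throughout because no motif is marked.
*Sfrp2*: tcggcatctaagtcttcaaacatttcgttg
*Dkk3*: gcctgtaaatcgcatctgaagataccacag
*Dkk1*: tactgtgttgtaaatcctcagtgtggcact
*Frzb*: gtgcaccagggtgttatttaacagaggtat

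In the array files, which use the mouse build mm9, the *Sfrp2* probe lies at chr3:83577864-83577923 on the plus strand, the *Dkk3* probe at chr7:119259556-119259615 on the minus strand, the *Dkk1* probe at chr19:30621424-30621483 on the minus strand and the *Frzb* probe at chr2:80252582-80252641 on the minus strand. The probe of *Sfrp1* lies at chr8:24559438-24559497 and that of *Sfrp4* at chr13:19724488-19724547, both on the plus strand. The probe of *Sfrp5* lies at chr19:42272509-42272568 on the minus strand and that of *Dkk2* at chr3:131842357-131842416 on the plus strand. The files assign each probe to a RefSeq transcript of its gene, and its position within the exons was not analysed here. With a single probe a gene, no second measurement of a transcript was at hand.

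Across all genes, the channel with AlexaFluor647 was the brighter one on both arrays, with median spot intensities of 618 and 680 against 307 and 352 in the other channel. The share of spots well above background ran from 68.6% to 70.7% over the channels, and 0 spots were saturated. The log2 ratios of treated over control correlated between the arrays with a Pearson r of 0.465 over the tested genes, which are not independent replicates. The median SD between the arrays was 0.11. The test in limma called 232 genes (1.15%) lower and 123 genes (0.611%) higher in the treated ureters at a false discovery rate (FDR) of 0.05, and all counts of antagonist genes are to be read beside these shares. The smallest mean change among the called genes was 0.57 on the log2 scale.

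*Sfrp2* was the only one of the 8 genes that passed FDR 0.05 in limma, and it was lower in the treated ureters. *Dkk3* and *Dkk1* were lower on both arrays by smaller amounts and did not pass. *Frzb* was above control on both arrays without passing, and *Sfrp1*, *Sfrp4*, *Sfrp5* and *Dkk2* had opposite directions on the 2 arrays. Thus 1 of 8 genes was called lower, where 1.15% of all genes were, and 0 of 8 were called higher, where 0.611% of all genes were. At an unadjusted p under 0.05 in limma, 3 of the 8 genes were lower (*Sfrp2*, *Dkk3* and *Dkk1*), as were 4.74% of all genes, and 0 were higher, against 8.67% of all genes. Of the 8 genes, 3 were lower on both arrays, against 27.5% of all genes, and 1 was higher on both, against 28.5% of all genes. The median change was -0.02 over the 8 genes and 0.00 over all genes tested. Since tissue was measured in bulk, fewer cells that express a gene and less of its RNA per cell cannot be told apart for any of these genes.

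**Figure D1:**
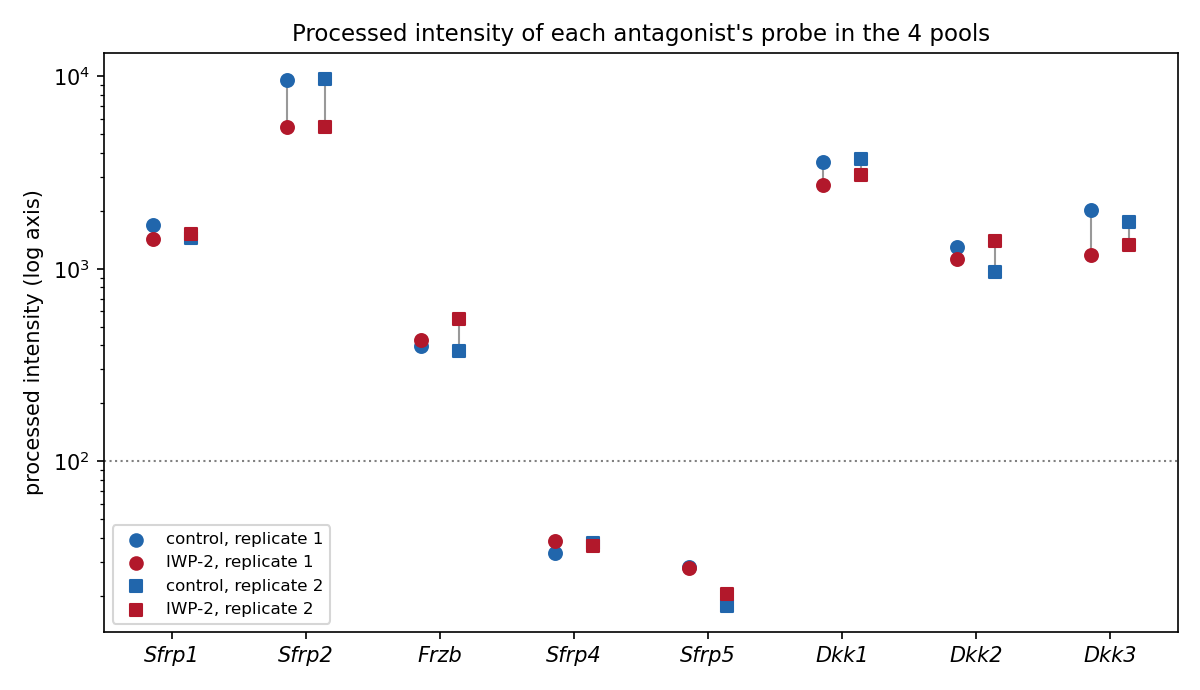
Processed intensity (log axis, arbitrary units after dye normalization) of the probe of each antagonist gene in the 4 pools, with control pools in blue, IWP-2-treated pools in red, circles for replicate 1 and squares for replicate 2, and a line joining the 2 pools of an array. The red symbols of *Sfrp2* lie at 5458 and 5468 and its blue symbols at 9557 and 9639, while *Sfrp4* and *Sfrp5* lie below the dotted line at an intensity of 100. Heights are not comparable between genes, since probes differ in their response.

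*Sfrp2* encodes an SFRP that binds WNTs outside the cell. Its processed intensity, that is, the spot brightness after background subtraction and dye normalization by the scanner software, stood at 5458 in the treated pool and 9557 in the control pool of replicate 1. On replicate 2, treated RNA gave 5468 and control RNA 9639. Both treated pools lay below both control pools, and the 2 pools of each kind were close to each other although their dyes were swapped. Control exceeded treated 1.75-fold on replicate 1 and 1.76-fold on replicate 2 on this scale. After normexp background correction and loess, on which the test was run, the log2 ratio was -0.87 on replicate 1 and -0.75 on replicate 2. The mean of -0.81 ± 0.08 (SD, n = 2 arrays) had a 95% interval of -1.05 to -0.57 and an adjusted p of 0.0180 in limma. The signal thus fell by 43.0%, a 1.76-fold decrease. By its mean change, *Sfrp2* ranked 157 from the lowest of the 20119 genes.

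The call of *Sfrp2* depended on the normalization, whereas its mean change moved little. Since the dyes were exchanged, a dye bias shared by both arrays cancels in the mean under any normalization. The similar means are therefore no sign of stability. When each array was centred on its median in place of loess, the log2 ratio was -0.53 on replicate 1 and -1.15 on replicate 2, so that the mean was -0.84 but the adjusted p was 0.348 in limma. In a model of the separate channels with a term for the dye, the adjusted p was 0.211 in limma. The SD between the 4 spots of the *Sfrp2* probe was 0.10 on replicate 1 and 0.03 on replicate 2. These spots received the same RNA, so that this SD is technical and does not measure the spread between pools.

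The 3 genes whose pair of log2 ratios was nearest to that of *Sfrp2* were *Dync1i1*, *Bmp5* and *Pdgfd*. *Dync1i1*, a dynein intermediate chain gene, lay at a distance of 0.0054 on the log2 scale over the 2 arrays. *Bmp5*, which encodes a ligand of the BMP pathway, lay at a distance of 0.010. *Pdgfd*, a PDGF ligand gene, lay at 0.053. All 3 passed FDR 0.05 as lower in limma, with means of -0.81, -0.81 and -0.78. The distance rests on 2 arrays alone.

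The other SFRP genes did not pass the test in either direction. For *Frzb*, also known as SFRP3, treated RNA gave an intensity of 424 and control RNA one of 399 on replicate 1. On replicate 2, treated RNA gave 550 and control RNA 375. Both treated pools lay above both control pools, but the gap on replicate 1 was small. The log2 ratios were 0.08 and 0.54, with a mean of 0.31 ± 0.32 (SD, n = 2 arrays), a 95% interval of 0.00 to 0.63 and an adjusted p of 0.383 in limma. *Frzb* had the highest mean of the 8 genes.

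*Sfrp1*, whose product is another WNT-binding SFRP, had intensities of 1430 in the treated and 1681 in the control pool of replicate 1. On replicate 2, they were 1519 in the treated and 1444 in the control pool. The pools of both kinds overlapped, and the mean change was -0.08 ± 0.24 (SD, n = 2 arrays), with a 95% interval of -0.36 to 0.20 and an adjusted p of 0.918 in limma. A decrease of the size of that of *Sfrp2* lies outside this interval.

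*Sfrp4* and *Sfrp5* were dim. *Sfrp4* had an intensity of 38.7 in treated and 33.5 in control RNA on replicate 1, and of 36.1 in treated and 37.4 in control RNA on replicate 2. *Sfrp5* had an intensity of 28.0 in treated and 28.4 in control RNA on replicate 1, and of 20.5 in treated and 17.8 in control RNA on replicate 2. All 4 spots of both probes were nevertheless well above background in every pool. Treated and control pools overlapped for both genes. The mean change was 0.06 ± 0.13 (SD, n = 2 arrays) for *Sfrp4*, with a 95% interval of -0.19 to 0.31. It was 0.05 ± 0.08 for *Sfrp5*, with an interval of -0.19 to 0.29. So close to background, log2 ratios are drawn toward 0 by the offset of the background correction, and small changes of these transcripts were not detectable.

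Of the DKK genes, *Dkk3* had the largest change. Treated RNA gave an intensity of 1173 and control RNA one of 2024 on replicate 1, and on replicate 2 these values were 1336 and 1743. Both treated pools lay below both control pools, by more on replicate 1. The log2 ratios were -0.78 and -0.37, with a mean of -0.58 ± 0.29 (SD, n = 2 arrays), a 95% interval of -0.88 to -0.27 and an adjusted p of 0.0920 in limma. The interval excludes 0, but the adjusted p did not pass over all genes. With a variance prior that follows the intensity, the adjusted p was 0.0426 in limma, and 0.0449 when this prior was also robust, so that 2 of the 8 genes were then called lower.

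*Dkk1*, an inhibitor of LRP5 and LRP6, had intensities of 2736 in the treated and 3578 in the control pool of replicate 1. On replicate 2, they were 3086 in the treated and 3730 in the control pool. Both treated pools again lay below both control pools, with a smaller gap than for *Sfrp2*. The log2 ratios were -0.43 and -0.24, with a mean of -0.33 ± 0.14 (SD, n = 2 arrays), a 95% interval of -0.59 to -0.08 and an adjusted p of 0.225 in limma. On replicate 1, 3 of the 4 spots of this probe were used, as the fourth was marked as an outlier.

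*Dkk2*, whose product also binds LRP5 and LRP6, had intensities of 1118 in the treated and 1289 in the control pool of replicate 1. On replicate 2, they were 1399 in the treated and 962 in the control pool. The gene was below control on the first array and above it on the second, with log2 ratios of -0.19 and 0.54. Its mean of 0.18 ± 0.52 (SD, n = 2 arrays) had the widest spread of the 8 genes, with a 95% interval of -0.24 to 0.59 and an adjusted p of 0.840 in limma. On replicate 2, 3 of its 4 spots were used.

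**Figure D2:**
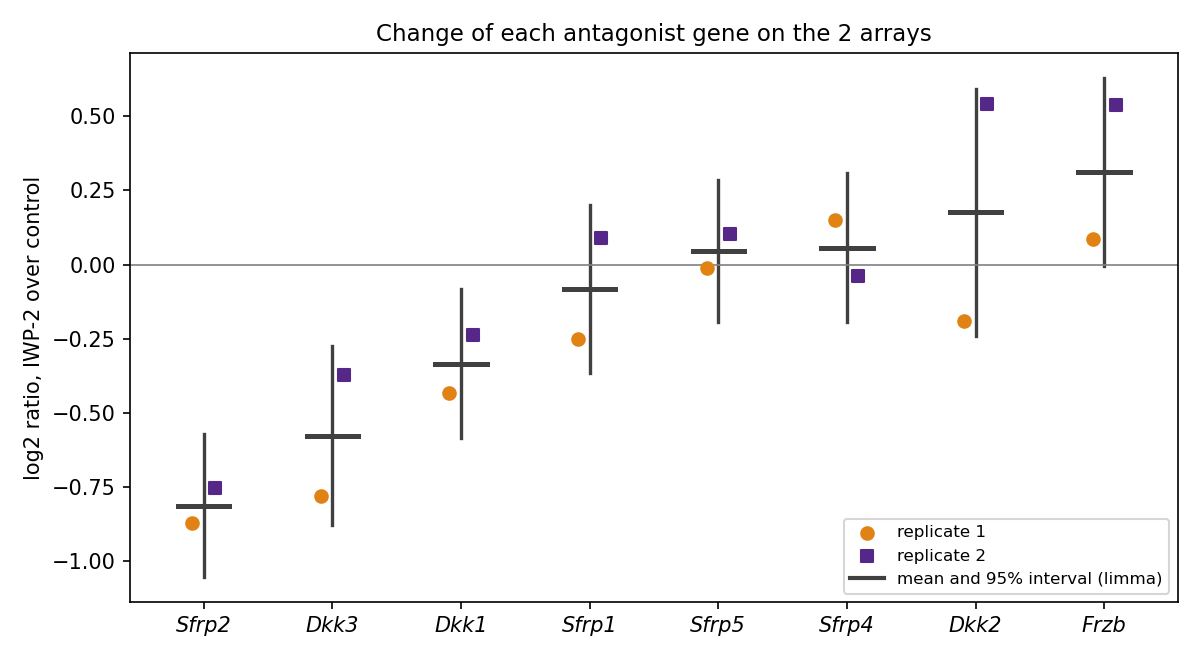
Log2 ratio of IWP-2-treated over control for each antagonist gene, ordered by mean, with circles for replicate 1, squares for replicate 2, short bars for the mean and vertical lines for the 95% interval of the limma fit. The interval of *Sfrp2* runs from -1.05 to -0.57, those of *Dkk3* and *Dkk1* also lie below 0, and those of the other 5 genes include 0.

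In the order of the mean changes, shown in the plot of log2 ratios by gene, neighbouring genes had overlapping intervals. The interval of *Sfrp2* overlapped with those of *Dkk3* and *Dkk1* but lay below those of *Sfrp1*, *Sfrp5*, *Sfrp4*, *Dkk2* and *Frzb*. On each array, the log2 ratio of *Sfrp2* was below that of each of the other 7 genes. The smallest such difference was -0.09, against *Dkk3* on replicate 1, and the largest was -1.30, against *Dkk2* on replicate 2. *Frzb* exceeded *Dkk3* by 0.86 on replicate 1 and by 0.91 on replicate 2. Differences between genes were not tested. By family, the median change was 0.05 over the 5 SFRP genes and -0.33 over the 3 DKK genes. These medians are the values of single genes, the dim *Sfrp5* and *Dkk1*, which did not pass. The family means were -0.18 (SFRP) and -0.47 (DKK) on replicate 1, and -0.01 and -0.02 on replicate 2. The families were not compared by a test.

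The study's methods used a filter in place of a test, with a fold change of 2 and an intensity of 100 on each array, the latter taken here in the brighter channel. Applied to the processed intensities, it passed 50 of 14550 bright genes (0.344%) as lower and 11 genes (0.0756%) as higher, and 0 of the 8 antagonist genes in either direction. With the intensity asked for in both channels it passed 27 genes as lower and 7 as higher, and with the mean fold change over the arrays 80 and 21, again with 0 of the 8 genes. *Sfrp4* and *Sfrp5* did not reach the intensity of 100. At a fold change of 1.5, *Sfrp2* alone of the 8 genes passed, as 1 of 165 genes lower in the treated pools. The gene counts of the filter as applied here differ from those that the study reported for its E11.5 explants.

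Of the other antagonists of the pathway, 14 of 17 were measured well enough to be tested, and *Cer1*, *Dkk4* and *Sost* were not. In limma at FDR 0.05, 2 of the 14 were lower and 0 were higher. *Apcdd1*, which encodes a membrane-bound inhibitor, had log2 ratios of -1.25 and -1.29 with a mean of -1.27. *Wif1*, which encodes a secreted WNT-binding inhibitor, had log2 ratios of -0.97 and -0.71 with a mean of -0.84. Before adjustment, 5 of the 14 were lower and 2 higher at a p under 0.05 in limma. The highest mean was the 0.36 of *Kremen2*, a gene for a DKK-binding receptor, which did not pass. The median over the 14 genes was -0.10. *Kremen1*, the other Kremen receptor gene, had a mean of 0.08.

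Among the genes for WNT receptors and co-receptors, 2 of 15 passed as lower and 0 as higher. *Fzd10* fell by 2.29 and *Fzd7* by 0.73 in the mean log2 ratio, and both encode Frizzled receptors. Before adjustment, 3 of the 15 were lower and 1 was higher at a p under 0.05 in limma, and the latter was *Fzd4*, with the highest mean of 0.41. The co-receptor genes through which DKK1 and DKK2 act had means of 0.00 (*Lrp5*) and -0.11 (*Lrp6*). The median over the 15 receptor genes was -0.09.

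Of the targets of canonical WNT signaling, 5 of 9 passed as lower in limma and 0 as higher, with 0 higher also at an unadjusted p under 0.05. These were *Nkd1* (-1.31), an inhibitor of the pathway inside the cell, *Sp5* (-1.12), a transcription factor, *Tcf7* (-0.89) and *Lef1* (-0.89), the TCF/LEF factors, and *Tnfrsf19* (-0.73), a receptor of the TNF family. *Axin2*, the scaffold of the complex that degrades CTNNB1, had log2 ratios of -1.38 and -0.64 and an adjusted p of 0.0502 in limma. The highest mean of the 9 was the 0.04 of *Ccnd1*, and the median was -0.89. All of these values are log2 ratios of treated over control, and the mean of *Sfrp2* (-0.81) lies between those of *Lef1* and *Tnfrsf19*. Of the WNT ligand genes, 9 of 11 were tested, *Wnt5a* alone passed, with a mean of -1.21, and the highest mean was the 0.18 of *Wnt9a*. *Porcn*, whose protein IWP-2 inhibits, had a mean of 0.09 and did not pass.

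**Figure D3:**
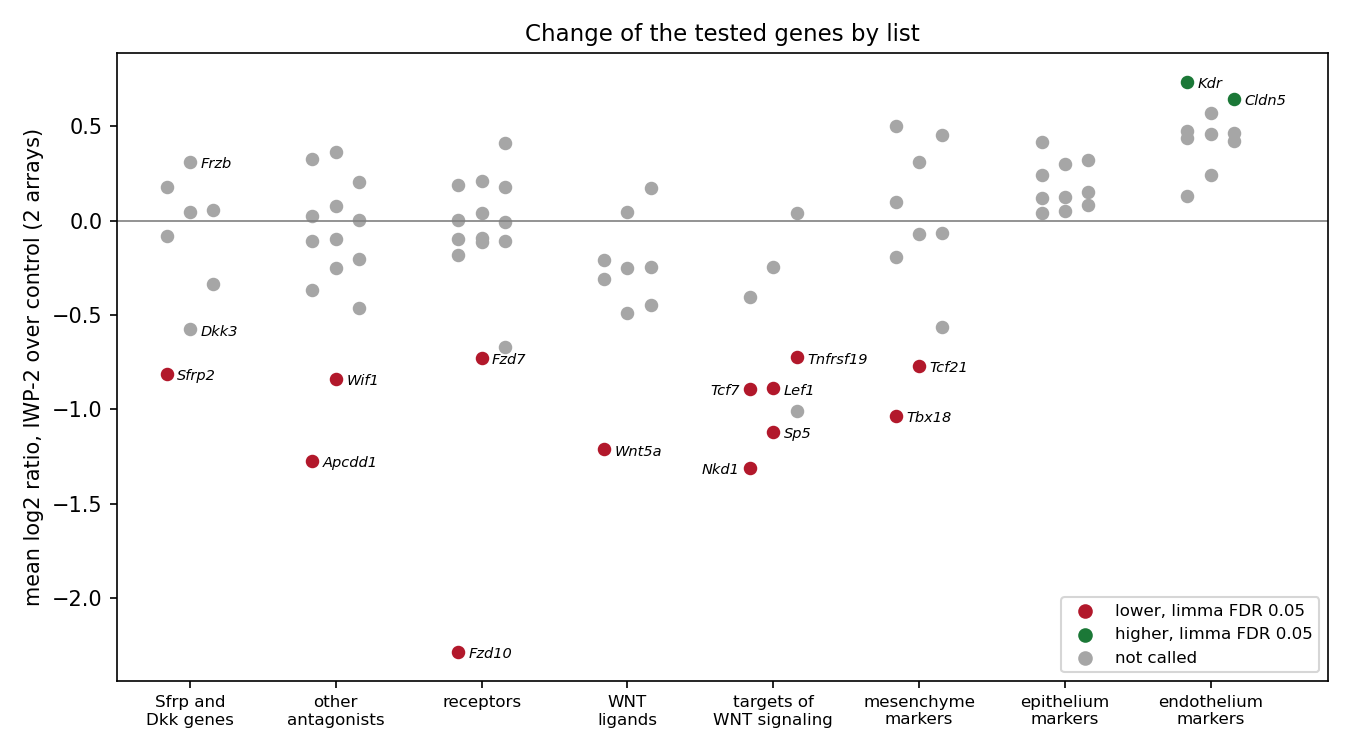
Mean log2 ratio of IWP-2-treated over control over the 2 arrays (vertical axis) for each tested gene of the SFRP and DKK families, of 4 lists of WNT pathway genes and of 3 lists of cell type markers, with red for genes lower and green for genes higher at FDR 0.05 in limma and grey for genes not called. *Sfrp2* is the single red point of its group at -0.81, beside 2 of 14 other antagonists and 5 of 9 WNT targets.

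Markers of cell types were examined in the same pools, and most did not pass FDR 0.05. Of 10 mesenchyme markers, 2 passed as lower (*Tbx18* at -1.03 and *Tcf21* at -0.77, both transcription factors of the mesenchyme) and 0 as higher (3 at an unadjusted p under 0.05 in limma), while the median over the list was -0.07. The summed processed intensity of the 10 markers was 105691 for treated and 113267 for control RNA on replicate 1, and 101869 against 92501 on replicate 2, so that the sum went in opposite directions. Of 10 epithelium markers, 0 passed in limma (0 lower and 3 higher at an unadjusted p under 0.05), and 5 were higher on both arrays, with a median of 0.14. All 10 genes of each of these lists were measured well enough to be tested.

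Markers of endothelium were higher on both arrays in 10 of 10 cases, against 28.5% of all genes, with a median of 0.46. In limma, 2 of them passed FDR 0.05 and 9 were higher at an unadjusted p under 0.05, against 8.67% of all genes. Their summed intensity was 25599 for treated and 18623 for control RNA on replicate 1, and 21508 against 14014 on replicate 2. Markers of macrophages were higher on both arrays in 8 of 8 tested cases, with a median of 0.46. In limma, 1 of them passed FDR 0.05 (*Adgre1* at 0.92) and 8 were higher at an unadjusted p under 0.05. Their sum was 15669 for treated and 12514 for control RNA on replicate 1, and 15053 against 9906 on replicate 2. Of 8 blood and 8 nerve markers, 0 passed in limma (5 higher in each list at an unadjusted p under 0.05). In each of these lists 6 markers were higher on both arrays, and the medians were 0.42 and 0.36. Of 8 markers of kidney mesenchyme, the neighbouring tissue at the clipped end of the ureter, 1 passed as higher (*Meox1* at 0.96) and 0 as lower. At an unadjusted p under 0.05 in limma, 2 of these markers were lower and 1 was higher. The median of the list was 0.25 on replicate 1 and -0.36 on replicate 2. The sum of the 8 kidney mesenchyme markers was 19152 for treated and 15103 for control RNA on replicate 1, and 14607 against 18530 on replicate 2. No tested marker of these lists fell to the floor of the intensity scale in all pools. The lowest macrophage value, an intensity of 15, did lie at that floor. The part of these cell types in the changes of the SFRP and DKK genes was not tested.

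Agreement between the arrays for single genes changed with the normalization. Under the processed intensities, the log2 ratios of *Sfrp2* were -0.81 and -0.82. Under median centring, *Dkk3* had log2 ratios of -0.67 and -0.55, closer to each other than under loess, and *Sfrp1* was below 0 on both arrays, at -0.14 and -0.09. The signs of the mean changes stayed as given for 7 of the 8 genes in all 11 alternative settings with a fit. The exception was *Sfrp4*, whose mean was 0 in the rounded values of the series table. Settings of the filter, probe choice, variance prior and channel model could not change a mean, since each gene had 1 probe. The equal signs in those settings thus say nothing on stability. Under the other normalizations, a dye bias shared by both arrays cancels in the mean, so equal signs there say little on it.

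**Figure D4:**
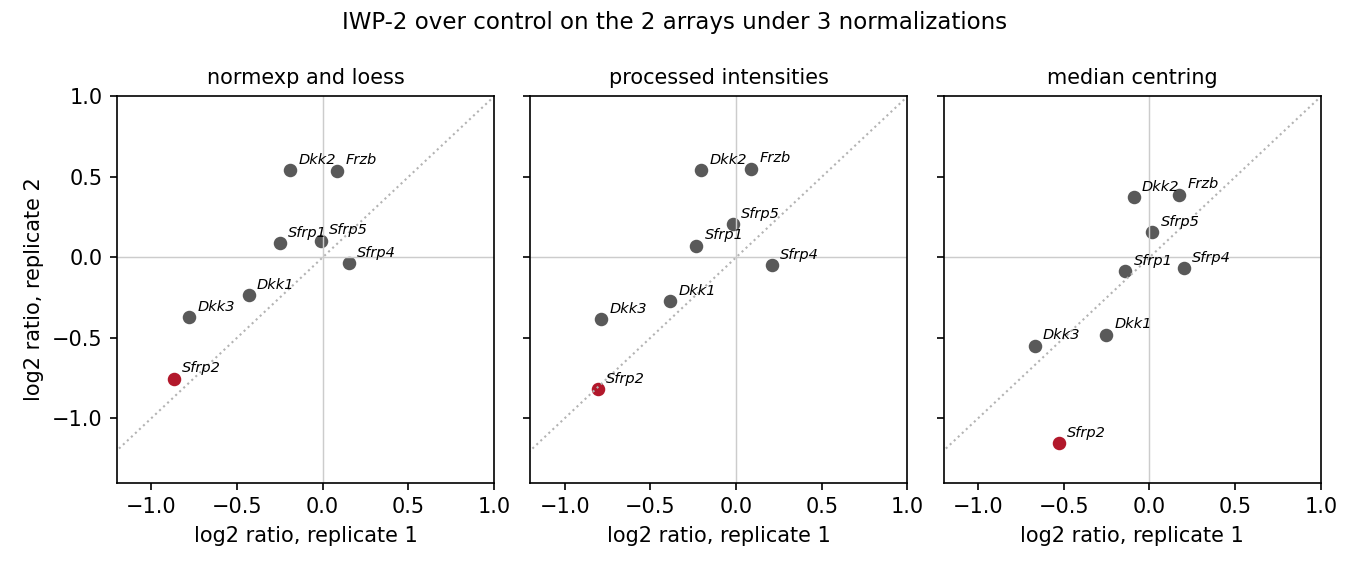
Log2 ratio of IWP-2-treated over control on replicate 1 (horizontal axis) and replicate 2 (vertical axis) for the 8 antagonist genes under normexp with loess, under the scanner software's processed intensities and under median centring. *Sfrp2* (red) lies at -0.87 and -0.75 in the first panel and at -0.53 and -1.15 in the third, and the dotted line marks equal ratios on both arrays.

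To describe the sequence upstream of the genes, the TCF/LEF consensus was searched, as the letters CTTTGAA and also as the variant CTTTGAT, the variant CTTTGTA or the variant CTTTGTT, on both strands in the 250 bases before the gene start (RefSeq, build GRCm38.p6). The table used held a promoter for 5 of the 8 genes, *Sfrp2*, *Frzb*, *Sfrp5*, *Dkk1* and *Dkk2*. Of these, 1 held a match, that of *Dkk1*, with CTTTGAA 117 bases and CTTTGTT 98 bases before the gene start, both on the strand of the gene. Over all 32851 promoters, 14.8% held at least 1 match. The promoter of *Dkk1*, at chr19:30549497-30549746 on the minus strand, is shown with the matches in capitals, and that of *Sfrp2*, at chr3:83766071-83766320 on the plus strand, is shown as the one of the called gene and has none in this window. A match is a description of the letters and not of a bound site.
*Dkk1*: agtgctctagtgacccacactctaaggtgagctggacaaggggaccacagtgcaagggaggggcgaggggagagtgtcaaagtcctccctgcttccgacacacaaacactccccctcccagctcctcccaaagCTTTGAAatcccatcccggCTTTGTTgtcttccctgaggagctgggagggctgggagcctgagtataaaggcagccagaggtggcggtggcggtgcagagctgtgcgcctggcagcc
*Sfrp2*: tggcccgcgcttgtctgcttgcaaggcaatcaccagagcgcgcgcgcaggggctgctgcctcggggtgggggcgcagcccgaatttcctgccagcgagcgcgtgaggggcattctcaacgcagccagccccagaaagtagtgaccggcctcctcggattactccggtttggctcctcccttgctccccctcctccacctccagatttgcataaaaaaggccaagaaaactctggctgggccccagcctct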

How the data were processed

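Pools of ureters were compared on 2 two-colour Agilent arrays with swapped dyes. The deposited scanner output holds unnormalized spot and local background intensities of both channels, and intensities processed, per the file headers, by Feature Extraction 12.2.0.7, while the submitters' processing notes name version 10.7.3.1. The deposited series table holds signed fold changes rounded by the authors, and its columns correlated with the processed ratios at r = 0.924 and 0.967 over probes. In R 4.3.3 with limma 3.58.1, intensities were corrected by normexp (offset 50) and loess within arrays. Outlier spots were dropped and the 4 spots of a probe averaged. A probe was kept where the treated RNA, or the control RNA, gave a share over 0.5 of spots well above background on each array, and the brightest kept probe stood for a gene. The functions lmFit and eBayes were run with opposite signs for the swapped arrays, with Benjamini-Hochberg adjustment over 20119 genes. The procedure was tested on simulated spots.

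Replicates are pools that the labels name separately, and nothing states that they came from separate cultures. The p-values thus rest only in part on the spread between these pools, which may itself be in part technical. The 2 arrays left 1 residual degree of freedom, and this number limits the precision. In the fit described above, the variance prior that limma drew from all tested genes had 5.52 degrees of freedom and an SD of 0.15. The p-values and intervals of a gene therefore rest more on this prior than on the spread of its own 2 values. The genes and lists were chosen with earlier results of these data known. Named were the 8 antagonist genes, the genes of the lists that passed or marked the ends of a range, *Lrp5*, *Lrp6*, *Kremen1* and *Axin2* by their roles after their values were seen, *Porcn*, and the 3 genes nearest to the antagonist with the largest change. Alternatives covered signal, normalization, background, filter, probe choice, variance prior, dye term, series table, outlier spots and each array left out. Protein sequences were not analysed here.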

Additional observations from a re-analysis of the deposited data

How the results depend on the processing

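*Sfrp2* stayed lower in all 11 alternative fits, with means from -0.84 to -0.81, and passed FDR 0.05 in limma in 8 of them. Its mean moved little under other normalizations, but a dye bias shared by the swapped arrays cancels in it. With 1 probe a gene, the filter, the probe choice, the variance prior and the separate-channel model could not move its mean. Keeping outlier spots could not either, since *Sfrp2* had none. Only the adjusted p could differ in these fits, and their equal means are no sign of stability. It did not pass with median centring (-0.84, adjusted p 0.348), in the separate-channel model with a dye term (-0.81, adjusted p 0.211) or in the rounded series table (-0.81, adjusted p 0.0744). In that model the correlation between channels came from a design without the dye, since the term left no degree of freedom for it. *Dkk3*, at -0.58, passed with a variance prior on intensity (adjusted p 0.0426) and with a robust one (adjusted p 0.0449), and then 2 antagonist genes were called, against 0 with median centring, the dye term or the series table. Over all genes, limma called 36 lower and 7 higher genes with median centring, 0 and 0 with the dye term (882 and 1361 at an unadjusted p under 0.05), 1323 and 1037 from the series table, and 98 and 21 without the filter on dim probes. Calls of higher genes were 75 from processed intensities, 74 without background correction, 224 with the mean over probes, 226 with the robust prior and 224 with the prior on intensity alone. Of the other antagonists, 0 passed as lower with median centring or the dye term and 1 without the filter. Of the receptors, 1 passed as lower with median centring, with processed intensities and without the filter, 0 with the dye term, and 1 passed as higher in the series table. Of the WNT targets, 1 passed with median centring or from the series table and 0 with the dye term. Of the ligands, 0 passed with median centring or the dye term, 2 with the mean over probes, 3 with the robust prior and 5 from the series table. At a fold of 1.5, 1 antagonist gene passed the filter, against 0 at a fold of 2, and over all genes the filter passed 50 lower and 11 higher, 27 and 7 with the intensity in both channels, and 80 and 21 with the mean fold. The cause of these differences was not tested.

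With 1 array left out, there was no test and a change is that of the other array: -0.87 to -0.75 for *Sfrp2*, -0.78 to -0.37 for *Dkk3*, -0.43 to -0.24 for *Dkk1*, -0.25 to 0.09 for *Sfrp1*, -0.01 to 0.10 for *Sfrp5*, -0.04 to 0.15 for *Sfrp4*, -0.19 to 0.54 for *Dkk2* and 0.08 to 0.54 for *Frzb*. All fits were paired by array, since a ratio sets the treated against the control pool of 1 array and the separate-channel model had the array as a block, so no further fit with a replicate block was run. The 2 dim probes of *Sfrp4* and *Sfrp5* limit what could be seen of these transcripts.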
